A study of Mus musculus with 2 samples.

Results

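The let-7 family is a group of microRNAs, short RNAs that guide Argonaute proteins to matching sites in messenger RNAs and lower their output. A microRNA gene is transcribed into a longer precursor that folds into a hairpin, from which a 5p and a 3p strand are cut, and target choice rests mainly on the seed, bases 2 to 8 of the mature strand. The family is known for rising as tissues differentiate, and the RNA-binding protein LIN28 is known to hold back the maturation of let-7 precursors in embryonic cells. Some let-7 genes lie in clusters with Mir99 or Mir100 and Mir125. The genes described here are the 9 that do not: Mirlet7i, Mirlet7g, Mirlet7d, Mirlet7b, Mirlet7a-1, Mirlet7f-1, Mirlet7c-2, Mirlet7f-2 and Mir98. They were taken by symbol from the GENCODE M21 annotation, and all 9 were found among the 2202 microRNA genes measured.

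The counts come from small RNA libraries, selected below 30 nt, of hearts of B6CASTF1/J mice, which the labels give as female and 4 days old. There was 1 group, untreated as far as the labels say, with 2 hearts. Heart replicate 1 came from the animal numbered 3 and heart replicate 2 from the animal numbered 4, and each was technical replicate 1. The labels gave both animals the same donor entry, and whether the RNA was prepared on separate days is not stated. The data therefore show the level of each gene in these hearts and how far the hearts differed, and no treatment, age or sex was compared.

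All 9 genes have the seed GAGGUAG on the 5p strand, and their mature sequences differ at 0 to 4 of 22 bases from let-7a-5p. The 9 genes give 8 distinct 5p sequences, since Mirlet7f-1 and Mirlet7f-2 give the same one. The sequences are shown because a read can be counted for a gene only if it can be told from the other genes. They are RefSeq entries on GRCm38.p6, the build also called mm10, written 5′ to 3′ with the seed in capitals.
let-7i-5p: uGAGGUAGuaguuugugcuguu
let-7g-5p: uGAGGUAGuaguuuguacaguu
let-7d-5p: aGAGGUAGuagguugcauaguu
let-7b-5p: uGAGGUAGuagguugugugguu
let-7f-5p: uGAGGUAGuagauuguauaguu
miR-98-5p: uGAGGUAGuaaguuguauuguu
let-7c-5p: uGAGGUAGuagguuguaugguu
let-7a-5p: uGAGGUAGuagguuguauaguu

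Counted from 1 at the 5′ end, with the let-7a-5p base written before the position, let-7f-5p differs from let-7a-5p by G12A and let-7c-5p by A19G. The sequence let-7b-5p differs by A17G and A19G, let-7g-5p by G12U and U18C, let-7d-5p by U1A and U16C, and miR-98-5p by G11A and A19U. The farthest is let-7i-5p, with G12U, A17G, U18C and A19U. In RefSeq, the seed GAGGUAG is carried by 13 of 1738 mature entries (0.748%). They comprise the 9 genes, Mirlet7c-1 and Mirlet7e of the Mir99/Mir125 clusters, Mir7k and Mir1961. Mirlet7a-2 is absent because only its 3p strand is listed, though its hairpin holds the let-7a-5p sequence with this seed.

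The 3p strands are more varied and are shown because they decide which of the copies can be told apart. The seed UAUACAA is shared by Mirlet7a-1, Mirlet7b, Mirlet7c-2, Mirlet7f-1 and Mir98, while Mirlet7d, Mirlet7f-2, Mirlet7g and Mirlet7i each have one of their own among RefSeq entries. The 3p strands of Mirlet7a-1 and Mirlet7c-2 are identical over all 22 bases.
let-7a-1-3p: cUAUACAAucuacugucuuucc
let-7c-2-3p: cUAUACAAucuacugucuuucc
let-7f-1-3p: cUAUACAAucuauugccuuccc
let-7f-2-3p: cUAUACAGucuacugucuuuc
let-7i-3p: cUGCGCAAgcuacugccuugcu
let-7g-3p: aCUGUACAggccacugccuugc

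The 9 genes lie at 5 loci. Mirlet7i (ENSMUSG00000065406.3), on chromosome 10 (122985640 to 122985724, minus strand, mm10), overlaps an exon of the transcribed processed pseudogene D630033A02Rik. Mirlet7g (ENSMUSG00000065440.1), on chromosome 9 (106178840 to 106178927, plus strand), lies in an intron of Wdr82, which encodes a subunit of histone methyltransferase complexes. Mirlet7a-1 (ENSMUSG00000065421.3, 48538179 to 48538272), Mirlet7f-1 (ENSMUSG00000105621.1, 48537829 to 48537917) and Mirlet7d (ENSMUSG00000065453.1, 48536012 to 48536114) follow each other on the minus strand of chromosome 13 and overlap exons of the long noncoding RNA 6720427I07Rik. The gaps there are 261 bases between the hairpins of Mirlet7a-1 and Mirlet7f-1 and 1714 bases between those of Mirlet7f-1 and Mirlet7d. Mirlet7c-2 (ENSMUSG00000065608.1, 85706603 to 85706697) and Mirlet7b (ENSMUSG00000065564.1, 85707319 to 85707403) lie 621 bases apart on the plus strand of chromosome 15 and overlap exons of Lncppara. Mirlet7f-2 (ENSMUSG00000065602.1, 151912346 to 151912428) and Mir98 (ENSMUSG00000065536.2, 151913214 to 151913321) lie 785 bases apart on the plus strand of the X chromosome, in an intron of Huwe1, the gene of a ubiquitin ligase.

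Replicate 1 held 6417302 counts on the genes' own strand over all microRNA genes and replicate 2 held 5662222. Levels are given as CPM, counts scaled to a common library total. A floor of 3 counts corresponds to 0.467 CPM in replicate 1 and 0.530 CPM in replicate 2. A further 5722879 reads in replicate 1 (39.6% of all reads) and 5835632 in replicate 2 (43.2%) were multi-mapped and are in no gene's count. All 7 heart muscle marker genes had counts and 5 had at least 10 in each library, with Mir208a highest, and together they held 21023 CPM in replicate 1 and 19191 CPM in replicate 2. Within this sum, Mir208a held 10883 CPM in replicate 1 and 6019 CPM in replicate 2, and Mir208b 7457 and 5640 CPM. Mir499 went the other way, with 2653 and 7487 CPM. Mir1a-1, Mir1a-2, Mir133a-1 and Mir133a-2 were each at or below 33.6 CPM in both libraries, in counts without multi-mapped reads. Of 6 neuronal marker genes, 4 were at 0 counts in both libraries. The 4 leukocyte marker genes together held 1301 CPM in replicate 1 and 872 CPM in replicate 2. The 7 epithelial marker genes held 595 and 662 CPM, and Mir122 of liver 105 and 86.2 CPM. Mir206 and Mir133b, known from skeletal muscle, together held 719 CPM in replicate 1 and 60.0 CPM in replicate 2. This gap lay in Mir206 (718 and 58.5 CPM), whereas Mir133b held 1.56 and 1.59 CPM. Red blood cell genes (Mir144 and Mir451a) held 489 CPM in replicate 1 and 126 CPM in replicate 2. Mir126a of endothelium held 51829 CPM in replicate 1 and 73011 CPM in replicate 2, and the smooth muscle genes Mir143 and Mir145a together 47055 and 60331 CPM. The part of these gaps in the results below was not tested.

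In replicate 1 the 9 genes made up 24.4% of own-strand counts, with an exact 95% Clopper-Pearson interval of 24.38 to 24.44. In replicate 2 they made up 23.7%, with an interval of 23.65 to 23.72, so that the mean share was 24.0% ± 0.515 (SD, n = 2). The share depends on the denominator, and was 12.3% with multi-mapped reads in the total and 10.4% of all reads (means of both libraries). The other 2193 microRNA genes held 76.0% ± 0.515. Of all counts on 15 let-7 family genes, the 9 held 95.4% in replicate 1 and 95.9% in replicate 2. These are uniquely placed reads, and some of the 15 genes share mature strands, so they are not shares of all let-7 RNA. The counts were uneven within the group. Mirlet7i and Mirlet7g alone held 72.0% ± 2.78 of the group's counts, the 4 highest genes held 96.0% ± 0.528, and the 3 lowest together held 0.405% ± 0.00235 (SD, n = 2). All 9 reached 10 counts in both libraries, as did 373 of the 2202 genes, and 4 of the 9 were among the 25 highest genes by mean CPM.

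Mirlet7i was the highest of the group, with 93536 CPM in replicate 1 and 94380 CPM in replicate 2 (600246 and 534402 counts). It ranked 2 among all genes in both libraries. Its mean was 93958 ± 597 CPM (SD, n = 2), a spread of 0.636% of the mean. Mirlet7g followed with 77458 CPM in replicate 1 and 80830 CPM in replicate 2 (497068 and 457680 counts) and ranked 3 in both. Both hearts thus placed these genes in the same order, and in neither library did the value of one gene reach that of the other.

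Mirlet7d held 42126 CPM in replicate 1 and 33657 CPM in replicate 2 (270332 and 190572 counts), ranking 7 and 8. Mirlet7b held 22201 CPM in replicate 1 and 17669 CPM in replicate 2 (142469 and 100046 counts), ranking 12 and 17. These genes lie on different chromosomes, and both were higher in replicate 1 on the CPM scale, with spreads of 15.8% and 16.1% of their means. The ratio of Mirlet7d to Mirlet7b was 1.90 in both libraries.

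Both genes of the X chromosome locus held middle levels. Mirlet7f-2 had 3878 CPM in replicate 1 and 4953 CPM in replicate 2 (24885 and 28047 counts), a mean of 4416 ± 761 CPM (SD, n = 2). Mir98 had 3924 CPM in replicate 1 and 4376 CPM in replicate 2 (25181 and 24776 counts), a mean of 4150 ± 319 CPM. Their ranges overlapped and their order was opposite in the 2 hearts, so that no order could be given to them.

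The 3 lowest genes were close between the hearts on the CPM scale, though not with the TMM scaling described further on. Mirlet7c-2 had 481 CPM in replicate 1 and 455 CPM in replicate 2 (3084 and 2575 counts). Mirlet7a-1 had 353 CPM in replicate 1 and 352 CPM in replicate 2 (2263 and 1992 counts). Mirlet7f-1 had 152 CPM in replicate 1 and 158 CPM in replicate 2 (978 and 892 counts). The SD was 3.90% of the mean or less for each of these genes, and their ranges did not overlap one another. With TMM scaling they differed 1.19-fold (Mirlet7c-2) to 1.30-fold (Mirlet7f-1), lower in replicate 1.

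**Figure D1:**
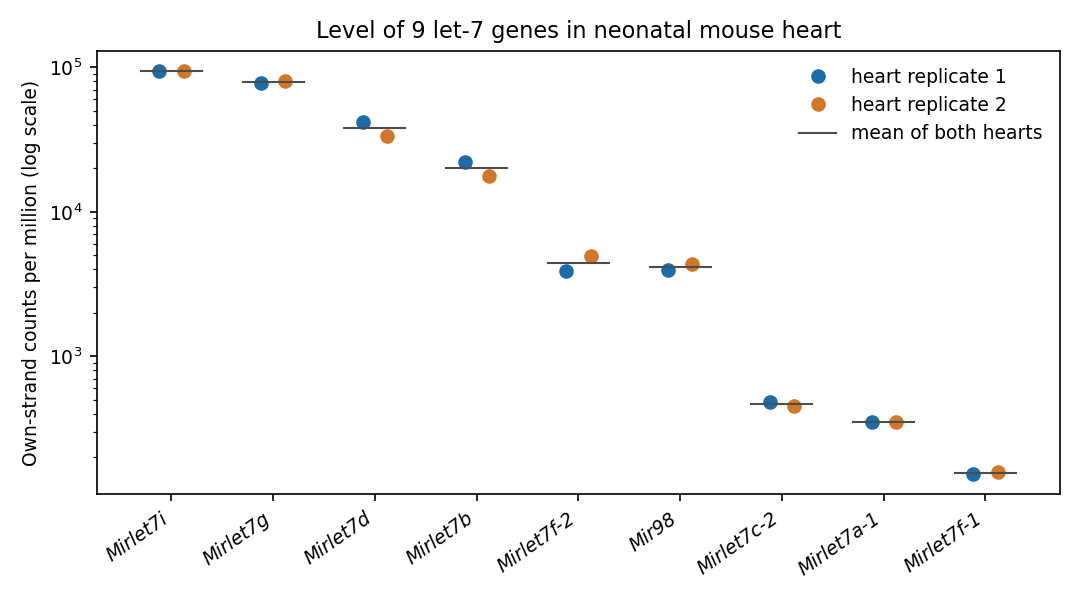
CPM on a log axis for the 9 genes, ordered by mean; each point is 1 heart (replicate 1 left, replicate 2 right) and the line is the mean. The values fall into 4 genes at or above 17669 CPM, 2 between 3878 and 4953 CPM whose points overlap, and 3 genes at or below 481 CPM.

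In order of mean CPM the genes ran Mirlet7i, Mirlet7g, Mirlet7d, Mirlet7b, Mirlet7f-2, Mir98, Mirlet7c-2, Mirlet7a-1, Mirlet7f-1. Of the 8 pairs of neighbours in this order, 7 kept their order in both libraries with ranges that did not overlap, and in those 7 the gap between means exceeded the sum of the SDs. The narrowest of them by ratio was Mirlet7i over Mirlet7g, 1.21 in replicate 1 and 1.17 in replicate 2. The widest was Mir98 over Mirlet7c-2, 8.17 in replicate 1 and 9.62 in replicate 2. Counted reads were taken as short RNAs cut from the hairpin, so CPM was not divided by length in these levels. Divided by the hairpin's length, from 83 bases for Mirlet7f-2 to 108 for Mir98, the order of the means was unchanged, from 1105 CPM per base for Mirlet7i to 1.74 CPM per base for Mirlet7f-1. The gap between Mirlet7f-2 and Mir98 was then 53.2 against 38.4 CPM per base.

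Outside the family, the genes closest in level over both libraries were found by the distance of log2(CPM + 0.5) values. For Mirlet7i they were Mir378a (distance 0.24; 103526 CPM in replicate 1 and 107719 CPM in replicate 2) and Mir126a (distance 0.93; 51829 and 73011 CPM). The same genes came closest to Mirlet7g, at distances of 0.59 and 0.60. Mirlet7d was closest to Mir23b (0.23; 42469 and 39556 CPM) and Mir99a (0.38; 32932 and 36594 CPM). Mirlet7b was closest to Mir351 (0.21; 20871 and 20184 CPM) and Mir26b (0.24; 21334 and 20693 CPM). With 2 libraries, such a distance describes level and no shared variation.

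The levels of the 9 genes can be read beside how far their sequences are distinct. Each mature sequence was searched for, on both strands, in the 2202 annotated hairpins, and hairpins overlapping at 1 place were counted once. The rest of the genome was not searched. For Mirlet7i, Mirlet7g, Mirlet7d, Mirlet7b and Mir98 both strands occur at 1 place. Their mean levels ran from 4150 CPM for Mir98 to 93958 CPM for Mirlet7i. For Mirlet7f-1 and Mirlet7f-2 the 5p strand occurs at 2 places, each other's, while the 3p strand occurs at 1. Their mean levels were 155 and 4416 CPM. For Mirlet7a-1 the 5p strand recurs in Mirlet7a-2 and the 3p strand in Mirlet7c-2, and for Mirlet7c-2 the 5p strand recurs in Mirlet7c-1, so neither gene has a strand found at 1 place. Their mean levels were 352 and 468 CPM. A read of exactly the shared sequence maps to several places and is left out of the counts as multi-mapped. How many of the multi-mapped reads were let-7 reads cannot be read from the deposited counts. The level of let-7a, let-7c and let-7f in these hearts is therefore not measured by the counts of these genes. The low places of Mirlet7a-1, Mirlet7c-2 and Mirlet7f-1 and the middle place of Mirlet7f-2 describe uniquely placed reads only.

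Over all genes the same division can be made for the 955 that have a mature RefSeq entry. Genes without a matched entry lie outside it, so the shares below do not add up to all counts. Of 851 genes with every mature sequence at 1 place, 279 (32.8%) reached 10 counts in both libraries and together held 75.0% ± 0.771 of all counts (SD, n = 2). Of 59 genes with a sequence at 1 place and another at several, 35 (59.3%) did, holding 1.21% ± 0.0126. Of 45 genes with no sequence at 1 place, 6 (13.3%) did, holding 0.0903% ± 0.00343, and Mirlet7a-1 and Mirlet7c-2 belong to these. The classes rest on listed strands, so Mirlet7a-2, listed with its 3p strand only, falls among the 851. These shares describe the genes and were not tested.

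The copies part beyond the mature strand. The stretches below show let-7f, let-7a and let-7c with the 6 hairpin bases that follow the 5p strand in capitals, since a read becomes distinct there. The first base after the strand separates Mirlet7f-1 (G) from Mirlet7f-2 (U), so 23 bases from the 5′ end are found in 1 hairpin only. For Mirlet7a-1 and Mirlet7c-2 it takes 24 bases, because the next base is U in all 4 let-7a and let-7c copies.
Mirlet7f-1: ugagguaguagauuguauaguuGUGGGG
Mirlet7f-2: ugagguaguagauuguauaguuUUAGGG
Mirlet7a-1: ugagguaguagguuguauaguuUUAGGG
Mirlet7a-2: ugagguaguagguuguauaguuUAGAGU
Mirlet7c-2: ugagguaguagguuguaugguuUUGGGC
Mirlet7c-1: ugagguaguagguuguaugguuUAGAGU

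By contrast, 15 bases, the shortest length examined, already occurred in 1 hairpin for the 5p strands of Mirlet7d and Mir98, and 17 bases did for Mirlet7i, Mirlet7g and Mirlet7b. Mirlet7f-1 and Mirlet7f-2 have the same 5p strand, become distinct at the same length and differ in the base that follows it. Their counts differed 25.4-fold in replicate 1 and 31.4-fold in replicate 2, with Mirlet7f-2 higher. The part of that base and of multi-mapped reads in this gap was not tested. Which strand or which read lengths made up these counts is not recorded in them. The sequences that are distinct are not distant. The 5p strand of Mirlet7b is 1 mismatch from a stretch of the Mirlet7c-1 hairpin, that of Mirlet7i is 1 mismatch from the Mir7j hairpin, and those of Mirlet7g, Mirlet7d and Mir98 are 2 mismatches from the closest other hairpin. The mismatches allowed in alignment were not given in the sources used here.

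**Figure D2:**
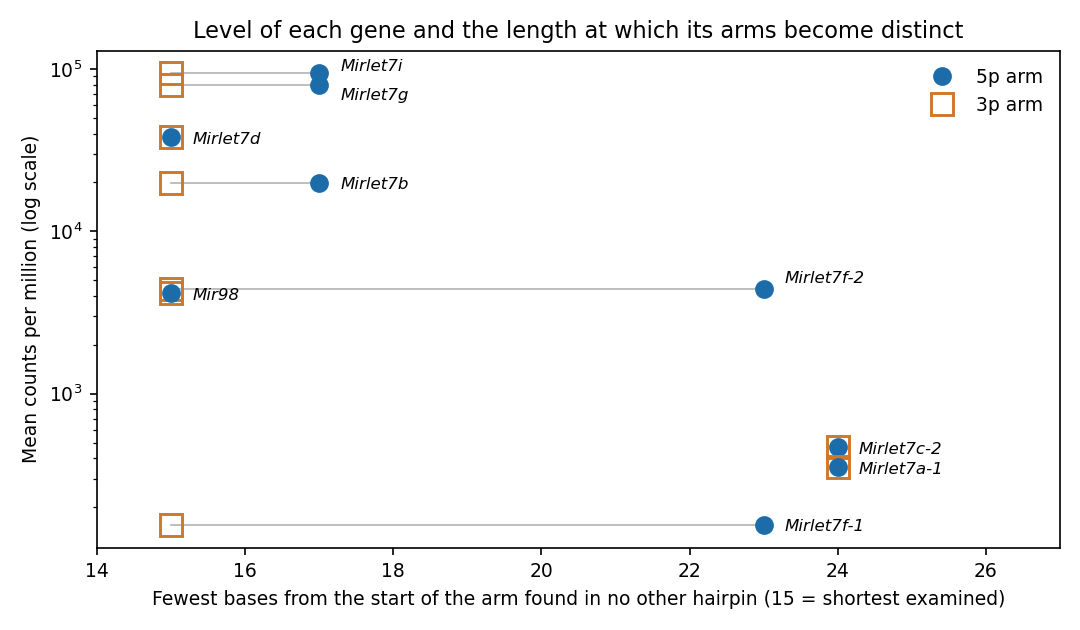
Mean CPM over both hearts (log axis) against the fewest bases, from the start of each strand, that occur in no other hairpin; circles are 5p strands, squares 3p strands, joined per gene, and 15 was the shortest length examined. Mirlet7c-2 and Mirlet7a-1 need 24 bases on both strands and lie at 468 and 352 CPM. Mirlet7f-2 and Mirlet7f-1 each need 23 bases on the 5p strand and lie at 4416 and 155 CPM.

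The other let-7 genes give the setting. Mirlet7e, whose 5p strand occurs at 1 place, held 10516 ± 1052 CPM (SD, n = 2) and ranked 21 by mean CPM, between Mirlet7b and Mirlet7f-2. Mirlet7c-1 held 262 ± 31.9 CPM and Mirlet7a-2 held 154 ± 44.1 CPM, both below Mirlet7c-2 and Mirlet7a-1, with which they share a 5p strand. Reads of exactly the shared strand are in none of these counts, so the order does not show which copy gave more let-7. The counts of Mirlet7a-1 were 353 CPM against 185 CPM for Mirlet7a-2 in replicate 1, and 352 against 123 CPM in replicate 2. Mir7j, the gene of let-7j, held 21.1 ± 6.68 CPM, and Mir7k and Mir202 had 0 counts in both libraries, which at the floor of 3 counts allows up to 0.467 CPM in replicate 1 and 0.530 CPM in replicate 2.

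The loop between the strands is where LIN28 is known to bind let-7 precursors, at the motif GGAG through its zinc knuckles and at motifs such as UGAU through its cold shock domain. Both were searched on the hairpin's own strand between the annotated 5p and 3p strands, for 8 of the 9 genes, Mir98 left aside. GGAG was present in 6 of the 8 loops, against 51 of the 625 hairpins with both strands annotated (8.16%) and 10 of the 29 whose loops had the same range of lengths, 26 to 34 bases (34.5%). Those 29 include the 8, and 4 of the other 21 held it. The loops of Mirlet7c-1 and Mirlet7e, at 23 bases outside that range, also held GGAG, without UGAU. UGAU was present in 3 of the 8, against 37 of 625 (5.92%) and 3 of 29 (10.3%), with 0 of the other 21. Mirlet7g and Mirlet7f-1 held both motifs and were the only 2 of the 625 hairpins to do so, whereas Mirlet7c-2 held neither. The loops are printed with the motifs in capitals, with Mirlet7b as the gene with UGAU alone.
Mirlet7i: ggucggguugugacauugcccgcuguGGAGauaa
Mirlet7g: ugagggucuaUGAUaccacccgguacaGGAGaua
Mirlet7f-1: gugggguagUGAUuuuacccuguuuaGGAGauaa
Mirlet7d: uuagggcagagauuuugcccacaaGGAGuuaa
Mirlet7b: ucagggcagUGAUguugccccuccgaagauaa
Mirlet7c-2: uugggcucugccccgcucugcgguaa

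The median loop over the 625 hairpins was 16 bases long, against 26 to 34 for the 8. A motif match is a description of the sequence, and LIN28 was not measured by these microRNA counts.

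To set the hearts beside each other, each gene's split of counts was tested with an exact conditional binomial test (two-sided). Library sizes were scaled by TMM, a factor that takes most genes as alike, and p-values were adjusted by Benjamini-Hochberg over the 491 genes tested. Calls needed an adjusted p under 0.05 and a difference over 2-fold. The test covers counting noise only and compares these 2 libraries. Of the 9 genes, 0 were called, against 55 of the 491 tested (11.2%), of which 18 were higher in replicate 1 and 37 in replicate 2. Scaling by total counts gave 39 higher in replicate 1 and 22 in replicate 2, and again 0 of the 9. Without the fold limit, 7 of the 9 (77.8%) had an adjusted p under 0.05 in the exact binomial test, against 235 of the 491 (47.9%) and 139 of the 152 genes (91.4%) at or above Mirlet7f-1 in mean CPM, so that differences under 2-fold exceeded counting noise.

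The log2 ratios of replicate 1 over replicate 2, scaled by TMM, ran from −0.69 for Mirlet7f-2 (counting SE 0.0126) to −0.0030 for Mirlet7b (counting SE 0.00595). Their median was −0.35, against −0.02 over all genes tested, and 0 of the 9 were above 0, against 236 of the 491. The direction depends on the scaling. Scaling by total counts moved every log2 ratio up by 0.33, to a median of −0.01 for the 9 genes and 0.31 for all genes tested, and 4 of the 9 were then above 0. The order of the genes among themselves does not depend on scaling. Mirlet7f-2 (−0.69) and Mir98 (−0.49, counting SE 0.0129) were lowest, Mirlet7g (−0.39), Mirlet7f-1 (−0.38, counting SE 0.0668), Mirlet7i (−0.35), Mirlet7a-1 (−0.33, counting SE 0.0443) and Mirlet7c-2 (−0.25, counting SE 0.0385) came next, and Mirlet7d (−0.01) and Mirlet7b were highest. For Mirlet7d the exact binomial adjusted p was 0.0919 and for Mirlet7b 0.727, and scaling by total counts placed both higher in replicate 1, at 0.32 and 0.33.

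**Figure D3:**
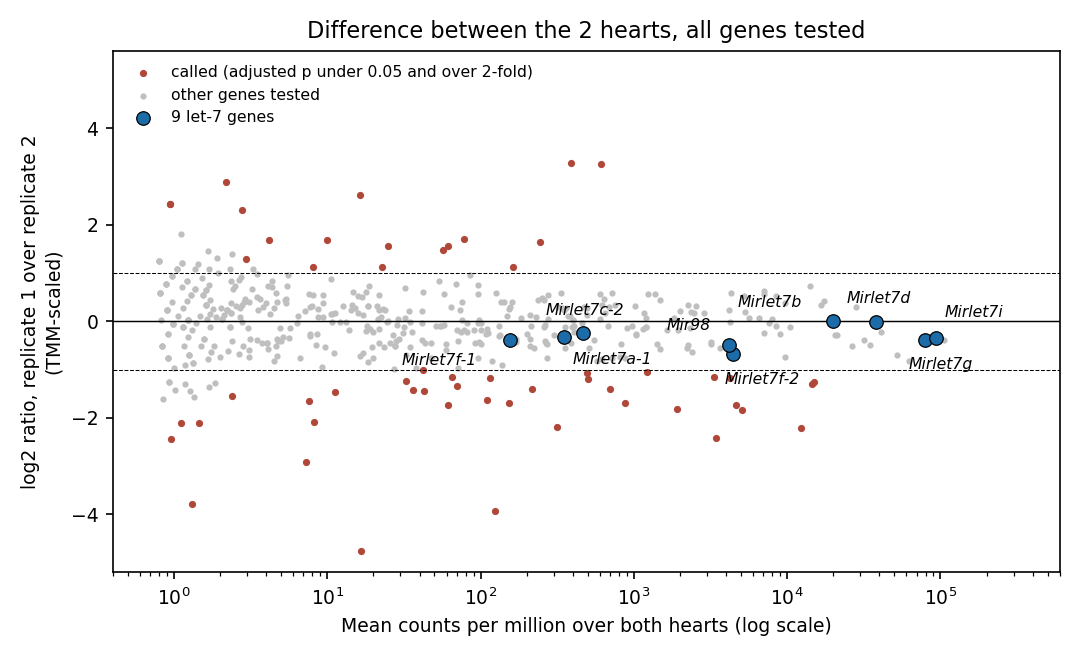
The log2 ratio of replicate 1 over replicate 2 (TMM-scaled) against mean CPM on a log axis for the 491 genes tested; large blue points are the 9 let-7 genes, red points the 55 called genes, grey points the rest, and dashed lines mark 2-fold. All 9 lie between −0.69 and −0.0030, inside the dashed lines; with scaling by total counts all ratios are 0.33 higher and 4 of the 9 lie above 0.

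The spread between hearts, taken as the SD over the mean CPM, had a median of 3.90% over the 9 genes, against 21.2% over the 373 detected genes and 19.8% over the 152 detected genes at or above Mirlet7f-1 in mean CPM. It ran from 0.168% for Mirlet7a-1 to 17.2% for Mirlet7f-2. These values rest on CPM scaled to total counts. With TMM scaling, the median size of the log2 ratio, sign aside, was 0.35 for the 9 genes, against 0.44 for all genes tested and 0.38 for the 152. With 2 hearts each single value is imprecise.

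Genes of the same locus can be compared as shares, which do not depend on library scaling. The 5 pairs within a locus were tested between the hearts with a two-sided Fisher's exact test on counts, adjusted over the 5 pairs. Mirlet7d held most counts of the chromosome 13 locus. Mirlet7a-1 made up 0.830% of the sum of Mirlet7a-1 and Mirlet7d in replicate 1, with an exact 95% interval by Clopper-Pearson of 0.796 to 0.865, and 1.03% in replicate 2 (0.990 to 1.08), with an exact adjusted p of 1.91e-12. Mirlet7f-1 made up 0.360% of its sum with Mirlet7d in replicate 1 (0.338 to 0.384) and 0.466% in replicate 2 (0.436 to 0.497), with an exact adjusted p of 3.9e-08. In both pairs the share of the lower gene was smaller in replicate 1.

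Between Mirlet7a-1 and Mirlet7f-1, the share of Mirlet7a-1 was 69.8% in replicate 1 (68.2 to 71.4) and 69.1% in replicate 2 (67.3 to 70.8). This difference was not detectable at this depth (exact adjusted p = 0.523). On chromosome 15, Mirlet7c-2 made up 2.12% of its sum with Mirlet7b in replicate 1 (2.05 to 2.19) and 2.51% in replicate 2 (2.41 to 2.61), with an exact adjusted p of 2.96e-10. On the X chromosome, Mirlet7f-2 made up 49.7% of its sum with Mir98 in replicate 1 (49.3 to 50.1) and 53.1% in replicate 2 (52.7 to 53.5), with an exact adjusted p of 7.39e-27. The difference of −3.39 percentage points, replicate 1 minus replicate 2, is the largest of the 5 in points, and it turned the order of these genes. As a ratio, Mir98 over Mirlet7f-2 was 1.01 in replicate 1 and 0.883 in replicate 2. This relative change was smaller than in the pairs with Mirlet7d or Mirlet7b, and larger than between Mirlet7a-1 and Mirlet7f-1. These p-values cover counting noise, and reads without molecular identifiers are not independent molecules.

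**Figure D4:**
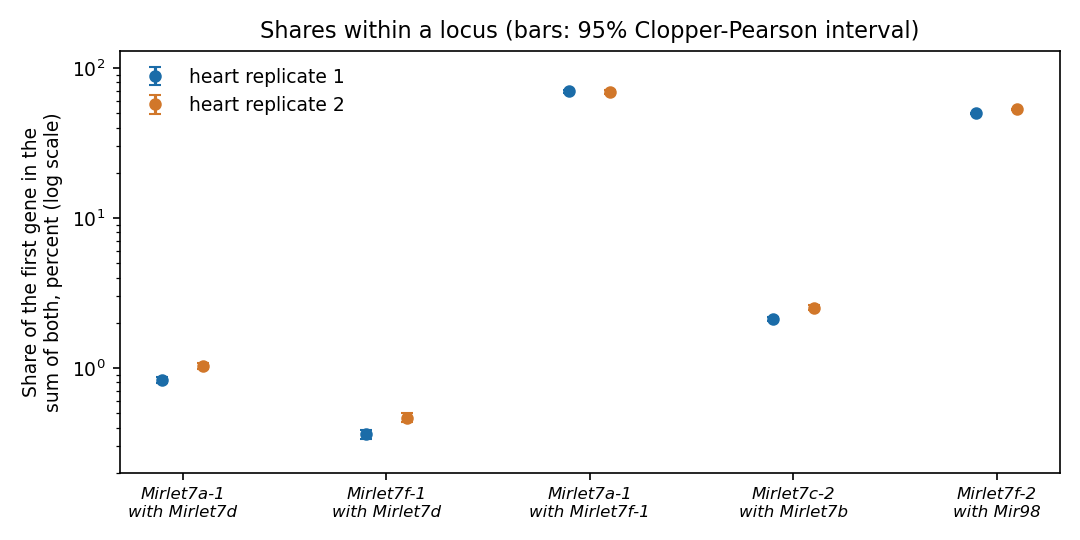
Share of the first-named gene in the summed counts of 2 genes of 1 locus, in percent on a log axis, for replicate 1 (left point) and replicate 2 (right point), with 95% Clopper-Pearson intervals. Mirlet7a-1, Mirlet7f-1 and Mirlet7c-2 lie at or below 2.51% of their sums with Mirlet7d or Mirlet7b, whereas Mirlet7f-2 and Mir98 are near equal. All shares are of uniquely placed reads.

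In uniquely placed reads, the genes of 1 locus had unlike counts on chromosomes 13 and 15. Mirlet7d outnumbered Mirlet7a-1 119-fold in replicate 1 and 95.7-fold in replicate 2, and Mirlet7f-1 276-fold and 214-fold. Mirlet7b outnumbered Mirlet7c-2 46.2-fold in replicate 1 and 38.9-fold in replicate 2. In each of these pairs the higher gene has both strands at 1 place and the lower gene does not. The part of the multi-mapped reads in these ratios was not tested. As summed shares, the chromosome 13 locus held 3.84% ± 0.599 of all counts, the chromosome 15 locus 2.04% ± 0.322 and the X chromosome locus 0.857% ± 0.108 (SD, n = 2).

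Counts on the opposite strand were 0 in both libraries for 8 of the 9 genes and 3 in each library for Mirlet7b. In the column that joins both strands, Mirlet7f-1 was listed at 0, since its hairpin overlaps Gm24111, an annotated microRNA gene on the opposite strand, and reads over both are left unassigned there. The other 8 genes kept their counts in that column to within 3.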

How the data were processed

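Small RNA libraries of 2 hearts of 1 group were analysed. The deposited counts are raw whole numbers per microRNA gene, 1 file per library, for mm10 and GENCODE M21 per the descriptions deposited with the files. The aligner, counting program, trimming and mismatch settings were not given in the sources used here. Of the columns, own-strand counts were used, which held 84.0% and 82.8% of the stranded counts in replicates 1 and 2. The opposite-strand column held 1223919 and 1177843 counts, and the column joining both strands left 1223777 and 1177754 reads ambiguous. Nearly all opposite-strand counts are thus reads over genes annotated on both strands, counted in both columns. The percentages therefore do not measure antisense reads. The summary entries (unmapped 11.9% and 11.4% of reads, outside microRNA genes 4.12% and 3.38%, multi-mapped) stayed out of library sizes. All 2202 gene identifiers matched M21. RefSeq entries on GRCm38.p6 gave the mature sequences. They were matched by identical hairpin coordinates for 969 genes, the 9 described here among them, and 955 of those had a mature entry. The loop of Mir98 is not reported here.

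CPM was computed on total own-strand counts. Genes with at least 10 counts in the sum were tested, with 0.5 added to counts in log2 ratios, on TMM factors of 1.12 and 0.891 (edgeR 4.0.16, R 4.3.3). The biological coefficient of variation from edgeR's common dispersion was 0.340. Alternatives were DESeq2 1.42.0 size factors, total counts, the edgeR exact test, no filter, a pseudocount of 5, the column joining both strands and other denominators. With 1 library a side, edgeR's quasi-likelihood test has no residual degrees of freedom. Intervals and floors cover counting error only. The labels name separate animals. The p-values of the exact binomial and Fisher's tests weigh these libraries against counting noise and hold no estimate of the spread between hearts. The named genes were the 9, 6 other let-7 genes (Mirlet7j and Mirlet7k were matched as Mir7j and Mir7k) and the 2 closest genes in level to each of the 4 highest. The genes and lists were chosen with earlier results of these data known. Python 3.11.15, scipy 1.17.1, pandas 2.3.3, numpy 2.4.6 and matplotlib 3.10.9 were used.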

Additional observations from a re-analysis of the deposited data

How the results depend on the processing

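The share held by the 9 genes was 30.0% with the column joining both strands, 12.3% with multi-mapped reads added to the total and 10.4% of all reads, and each single library gave 23.7 to 24.4%. The CPM of every one of the 9 genes moved by more than the SD with these 3 totals. With 2 libraries, a mean without 1 of them is the other library's value. The 9 places in the order were unchanged per hairpin base, and with a library left out 7 to 9 places were unchanged, Mirlet7f-2 and Mir98 changing places when replicate 1 stood alone. Genes called numbered 55, and 48 to 61 with other scalings, no filter or both strands joined, against 4 with edgeR's exact test. Its common dispersion came from both libraries taken as 1 group, so it holds the difference under test. None of the 9 was called in any of these, though Mirlet7f-1 could not be tested with both strands joined. Directions that turned were uncalled. With total counts the log2 ratios were 0.32 for Mirlet7d, 0.33 for Mirlet7b, 0.0034 for Mirlet7a-1 and 0.0796 for Mirlet7c-2, and with DESeq2 size factors 0.035 for Mirlet7d and 0.0405 for Mirlet7b. A pseudocount of 5 turned none. Shares within a locus kept their direction and their side of 0.05 with both strands joined, for the 3 pairs without Mirlet7f-1, which has no counts there. Taking the first 20 bases in place of the whole 5p strand left 5 genes at 1 place. Multi-mapped reads bound what the counts of Mirlet7a-1, Mirlet7c-2, Mirlet7f-1 and Mirlet7f-2 can show.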
